A study of Rattus norvegicus with 12 samples.

Results

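The 32 genes described here encode enzymes, transporters and regulators of glycolysis, gluconeogenesis and glycogen metabolism. They were taken as a pathway group and not by a threshold on their ratios. A probe set of the array was counted as a member where the platform annotation gave it a single gene symbol and that symbol was on the list. The 32 genes were measured by 40 of the 15866 probe sets that are not controls, and they are 32 of the 10411 genes that could be named. The study compared rats after a thermal injury (a burn) with rats given a sham procedure. It used the Affymetrix RAE230A rat expression array, and the labels list for each sample a sham RNA with Cy3 and an injury RNA with Cy5. The 9 samples used here are 3 at day 2, 3 at day 4 and 3 at day 7 after injury, each set against its own sham channel, so that every sample is both treated and control in 1 log2 ratio. The labels give no strain, age, burn size or tissue. Whether the samples of 1 day are separate animals is not said, and p-values therefore measure the spread between these samples, which may be technical. The 3 samples of day 1 were not used, because their identifiers do not match those of the other days: the order of brightness over identifiers correlated at 0.664 to 0.716 (Spearman's rho, across probe sets) between samples of days 2, 4 and 7 and at -0.0026 to 0.020 between day 1 and any of them.

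Glycolysis splits glucose into pyruvate, and gluconeogenesis runs most of the same steps backwards, with its own enzymes at the steps that cannot be reversed. Glycogen is the branched store of glucose that liver and muscle build after a meal and break down between meals. Liver uses gluconeogenesis and glycogen to release glucose into blood, under the control of insulin, glucagon and glucocorticoids, and burns are known for a long period of stress metabolism with raised glucose turnover.

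All values below are log2 ratios of injury over sham, with each array's median set to 0. A value of 1 is a 2-fold higher signal after injury and a value of -1 a 2-fold lower one. The direction is likely from the labels, which list sham as the first channel and injury as the second, but it is not stated for the value table, and every sign below depends on it. Array medians before centring were -0.13 to 0.16. Across all genes, pairs of arrays correlated at -0.10 to 0.16 (36 pairs, as a description). Of the 10411 genes, 34 passed an adjusted p of 0.05 in the mean over the 3 days, which is 0.327% of those tested. The precision is limited by the number of arrays. If the RNA is that of whole tissue, which the labels do not say, fewer cells of a type and less RNA per cell cannot be told apart.

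No member passed the test in any comparison. The count was 0 of 32 in the mean over the 3 days, at day 2, at day 4, at day 7 and in the difference between days (limma with Benjamini-Hochberg adjustment over 10411 genes). The lowest adjusted p of a member in these comparisons was 0.162 in the mean, 0.253 at day 2, 0.493 at day 4, 0.251 at day 7 and 0.298 for the difference between days. At an unadjusted p under 0.05, 8 of the 32 members were counted in the mean (25%) beside 10.2% of all genes, 5 at day 2 (15.6%) beside 8.48%, 0 at day 4 beside 10.7%, 6 at day 7 (18.8%) beside 12.4%, and 4 in the difference between days (12.5%) beside 12%. In the mean that count was 4 without day 4 sample 1 (845 of all genes, beside 1058 with all samples). Without centring it was 11 (1085 of all genes). At day 7 the count was 1 without day 7 sample 3 (779 of all genes, beside 1291 with all samples). At an adjusted p of 0.05 the share of all genes was 0.144% at day 2, 0% at day 4, 0.048% at day 7 and 0.00961% in the difference between days.

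The 8 members counted in the mean lay on both sides of 0. The 4 above 0 were all gluconeogenesis members, namely Pck1, Pck2, Slc37a4 and Ppargc1a, and 5.02% of all genes were counted on that side. The 4 below 0 were the glycogen members Gbe1, Ugp2 and Pygl and the glycolytic enzyme Pgk1, and 5.14% of all genes were counted there. At day 2 there were 3 above 0 (beside 4.75% of all genes) and 2 below (3.73%), at day 4 none on either side (6.22% and 4.43%), and at day 7 there was 1 above (5.39%) and 5 below (7.01%). Over all members the mean was above 0 in 16 of 32 (50.5% of all genes), with a median of -0.003, beside a median of 0.003 over all genes. The median member was at 0.02 on day 2 (16 of 32 above 0, beside 50.8% of all genes), 0.03 on day 4 (21 of 32, beside 51%) and -0.11 on day 7 (13 of 32, beside 48.4%). The same medians over all genes were 0.005, 0.006 and -0.013. These shifts are small beside the centring: without it the medians of the members were -0.02, -0.002 and -0.02. The day 7 median was -0.04 without day 7 sample 3.

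**Figure D1:**
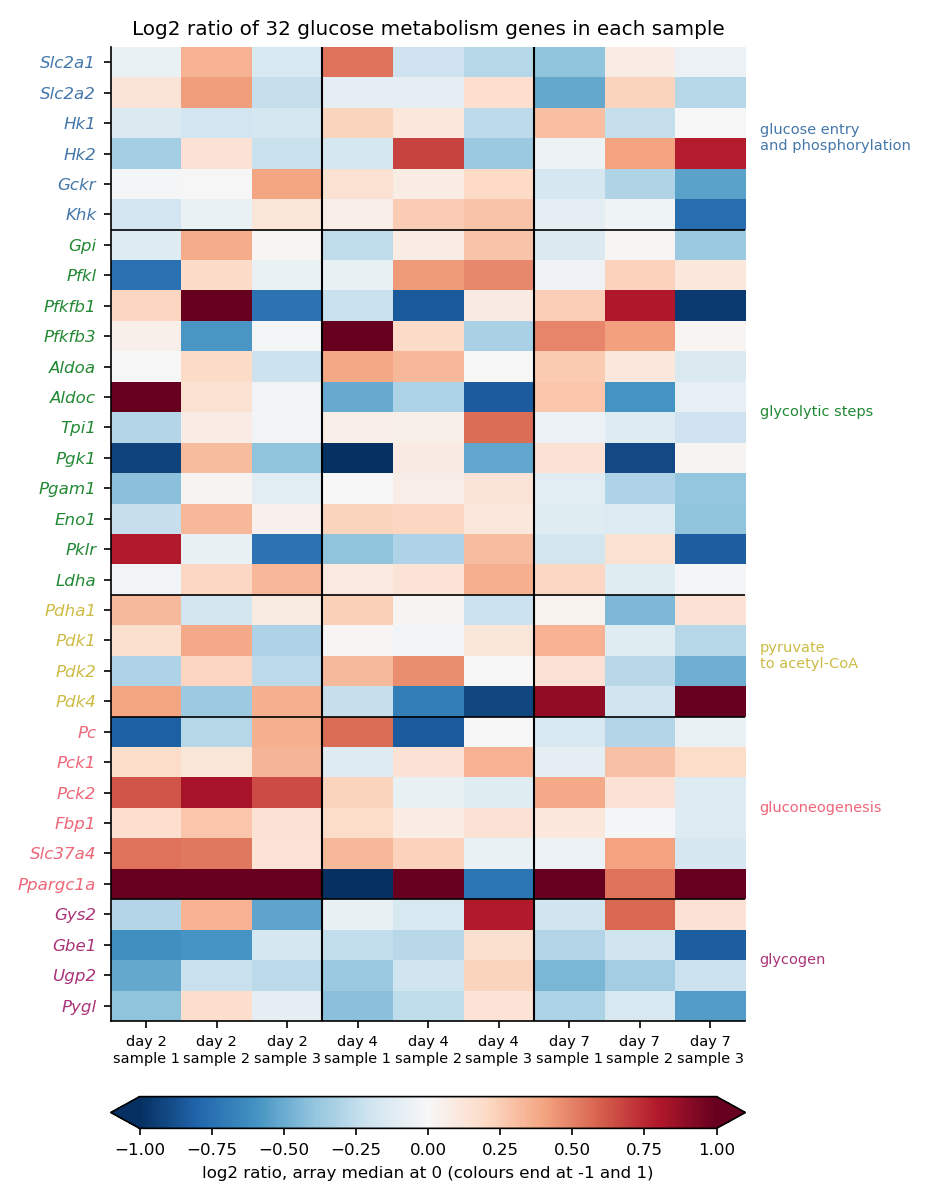
Log2 ratio of injury over sham for each of the 32 genes (rows, grouped by role) in each of the 9 samples (columns, by day), with red for values above 0 and blue for values below 0; colours end at -1 and 1, so Ppargc1a at day 2 (up to 4.54) lies beyond the scale. The row of Pck2 is darkest in the 3 samples of day 2 (0.63 to 0.82), and the rows of Gbe1 and Ugp2 are blue in 8 of 9 samples.

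Sequences just upstream of 4 members are given to show what precedes the gluconeogenesis and glycogen genes that the results below turn on. They were chosen after the values were seen, and Pck1 is among them as the classical hormone-regulated gene of the pathway. Each is the 250 bases before the annotated start in RefSeq (GRCr8), written 5′ to 3′ along the gene's strand. Capitals mark a match, on either strand, to the cAMP response element TGACGTCA, to its part TGACG, to the E-box CACGTG or to the hypoxia response core ACGTG, which lies inside the E-box. The regions are chr14:63634058-63634307 on the plus strand for Ppargc1a, chr3:182348322-182348571 on the plus strand for Pck1, chr11:22181026-22181275 on the plus strand for Gbe1 and chr14:99698003-99698252 on the minus strand for Ugp2.
Ppargc1a: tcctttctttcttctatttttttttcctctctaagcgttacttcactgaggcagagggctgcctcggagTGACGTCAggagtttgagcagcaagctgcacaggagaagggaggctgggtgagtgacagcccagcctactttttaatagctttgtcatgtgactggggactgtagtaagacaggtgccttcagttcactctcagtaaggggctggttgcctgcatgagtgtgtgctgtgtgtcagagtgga
Pck1: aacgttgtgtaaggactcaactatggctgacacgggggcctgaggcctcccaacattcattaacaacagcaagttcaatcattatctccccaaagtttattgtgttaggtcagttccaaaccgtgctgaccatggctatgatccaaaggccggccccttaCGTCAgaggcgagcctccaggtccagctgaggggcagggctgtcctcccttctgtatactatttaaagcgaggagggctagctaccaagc
Gbe1: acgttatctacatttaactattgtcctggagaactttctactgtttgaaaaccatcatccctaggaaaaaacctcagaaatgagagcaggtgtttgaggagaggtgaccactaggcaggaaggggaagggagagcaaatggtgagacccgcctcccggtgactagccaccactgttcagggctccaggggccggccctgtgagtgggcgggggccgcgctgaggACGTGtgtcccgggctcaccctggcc
Ugp2: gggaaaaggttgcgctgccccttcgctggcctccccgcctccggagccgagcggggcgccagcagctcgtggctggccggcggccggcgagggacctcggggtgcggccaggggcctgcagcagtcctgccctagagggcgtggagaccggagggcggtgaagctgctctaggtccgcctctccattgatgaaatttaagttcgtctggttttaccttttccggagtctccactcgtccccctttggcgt
The whole element TGACGTCA starts at position -181 in Ppargc1a, counted back from the annotated start. In Pck1 the 5-base part stands on the opposite strand, as CGTCA at position -90. In Gbe1 the hypoxia response core stands at position -26, and no searched motif was found in this window of Ugp2. Of the 32 members, 30 had a promoter in the RefSeq table, with Pc and Pgk1 not in it. The whole element was found in 2 of the 30 (Ldha and Ppargc1a), beside 1.7% of 27457 promoters, and its part in 9 of 30 beside 19%. The E-box was found in 3 of 30 (Ldha, Pdk2 and Pfkfb3) beside 5.79%, and the hypoxia response core in 8 of 30 beside 16.9%. A match is a description of letters, and no factor's binding was measured.

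Of the 6 gluconeogenesis members, 5 had a mean above 0 (median 0.18), and at day 2 their median was 0.36, 0.40 and 0.35 in the 3 samples. At day 4 the sample medians were 0.20, 0.11 and -0.04, and at day 7 they were 0.03, 0.22 and -0.10. The 3 samples of day 2 were thus the highest of the 9 with all 6 members counted. Without Ppargc1a, the member of lowest signal, the median was 0.18 (Pck1) in day 2 sample 1. That is below the 0.22 (Pck2) of day 4 sample 1. Without the dimmest genes, Ppargc1a among them, the median of the 5 members left was 0.21 at day 2 and 0.15 in the mean. With each sample left out in turn, 5 of 6 means stayed above 0 and the median was 0.14 to 0.21. Beside these, 12 of 13 measured hepatocyte markers were also above 0 at day 2, with a median of 0.12, and their part in the values was not tested. By sample, 4 of 13 markers were above 0 in day 2 sample 1 (median -0.03), 12 in sample 2 (0.23) and 11 in sample 3 (0.19).

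Pck2 encodes the mitochondrial form of phosphoenolpyruvate carboxykinase, which makes phosphoenolpyruvate from oxaloacetate. Its ratios were 0.63, 0.82 and 0.65 at day 2, then 0.22, -0.08 and -0.12 at day 4, and 0.38, 0.14 and -0.13 at day 7. All 3 samples of day 2 stood above all 6 later ones. The day 2 mean of 0.70 ± 0.10 (SD, n = 3), 1.63-fold, had an adjusted p of 0.285, and the mean over the 3 days was 0.28 (SE 0.10, adjusted p = 0.394). The gene has 2 probe sets, which read 1.08 and 0.32 at day 2 and were on opposite sides of 0 at day 7, at -0.28 and 0.54. In the 3 samples of day 2 the first read 0.55, 1.78 and 0.90 and the second 0.70, -0.14 and 0.40. The narrow SD is thus that of their average. Day 2 stood above all later samples on the first probe set, while on the second the days overlapped.

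Pck1 encodes the cytosolic form of the same enzyme, the one best known for its induction by glucagon and glucocorticoids in fasting. It read 0.18, 0.12 and 0.34 at day 2, -0.13, 0.14 and 0.35 at day 4, and -0.10, 0.30 and 0.18 at day 7. The samples of the 3 days overlapped, and 7 of 9 were above 0. The mean was 0.15 (95% interval 0.002 to 0.31, adjusted p = 0.484), so the interval ends well under a 1.5-fold difference.

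Slc37a4 encodes the transporter that brings glucose 6-phosphate into the endoplasmic reticulum, where glucose is released. Ratios were 0.54, 0.53 and 0.14 at day 2, 0.33, 0.23 and -0.07 at day 4, and -0.06, 0.40 and -0.17 at day 7. The highest values were in day 2, and the days overlapped. Its day 2 mean was 0.40 ± 0.23 (SD, n = 3, adjusted p = 0.449), and its mean over the days was 0.21 (SE 0.08, adjusted p = 0.408).

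Ppargc1a encodes PGC-1α, a coactivator that switches on gluconeogenic and mitochondrial genes in fasting. It had the largest ratios of all members: 3.56, 4.54 and 1.75 at day 2, -2.85, 1.32 and -0.73 at day 4, and 2.30, 0.54 and 2.49 at day 7. The day 2 samples lay above all of day 4, and day 7 overlapped both. Day means were 3.29 ± 1.42, -0.75 ± 2.09 and 1.78 ± 1.07 (SD, n = 3 each), and the mean over the days was 1.44 (SE 0.47, adjusted p = 0.308). The adjusted p was 0.253 at day 2 and 0.298 for the difference between days.

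Its signal was the lowest of the 32. Brightness here means log2 of the smaller of the 2 signals, recovered from each ratio as the simplest fraction of whole numbers and taken as the median of the 9 arrays. It was 4.09 for Ppargc1a, inside the range of 27 control probe sets for Bacillus transcripts (2.81 to 8.17), which rat RNA is not known to contain. Whether such transcripts were added to the RNA is not given in the sources used here, so the upper part of that range may not be background. Its signals, injury over sham, reduce to 230 over 19, 641 over 30 and 224 over 67 at day 2, where the smaller one is thus the sham signal. At day 4 they reduce to 3 over 22, 42 over 17 and 15 over 26, and at day 7 to 5 over 1, 26 over 17 and 144 over 23. The spread within days was wide for such genes: the median SD was 1.11 for the 291 genes under a brightness of 6 and 0.235 for the 2552 over 12. Of the other members only Aldoc lay in the control range, and 12 members reached the upper limit of 14.3. Among those 12 are Pck1, Fbp1, Slc2a2, Gckr and Khk, genes known for high expression in liver, although the labels name no tissue.

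**Figure D2:**
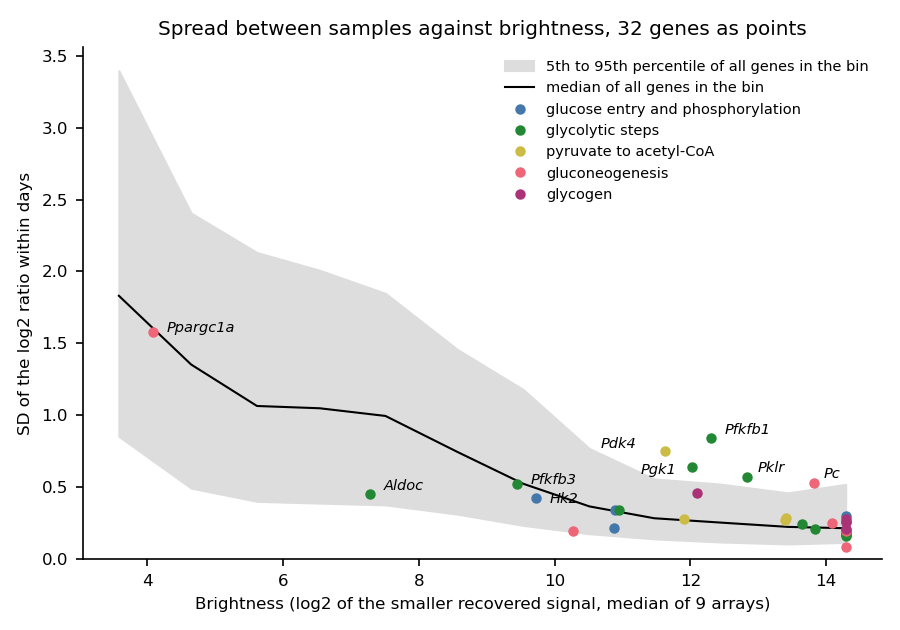
Spread of the log2 ratio within days (SD, vertical axis) against brightness (log2 of the smaller recovered signal, horizontal axis, ending at the limit of 14.3); points are the 32 genes in the colours of their role groups, the line is the median of all genes in a brightness bin and the grey band their 5th to 95th percentile. Ppargc1a, at a brightness of 4.09, lies close to the line, while Pfkfb1, Pdk4, Pgk1, Pklr and Pc lie above the band of genes as bright as they are. Brightness was averaged over the probe sets of a gene, which for Pgk1 were at 7.48, 14.3 and 14.3.

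The remaining gluconeogenesis members had narrow or scattered ratios. Fbp1, fructose 1,6-bisphosphatase, the enzyme that bypasses the phosphofructokinase step, read 0.14 to 0.28 at day 2, 0.08 to 0.18 at day 4 and -0.13 to 0.11 at day 7. All samples of day 2 were above all of day 7, in the narrowest spread within days of any member (SD 0.086). Pc, pyruvate carboxylase, which starts gluconeogenesis from pyruvate in mitochondria, ranged from -0.83 to 0.56 and was the 1 gluconeogenesis member with a mean below 0.

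The 4 glycogen members had a median of -0.24 over the 3 days, with 3 of 4 means below 0. Their median by sample was -0.46, -0.03 and -0.22 at day 2, -0.31, -0.23 and 0.19 at day 4, and -0.31, -0.18 and -0.39 at day 7. Day 4 sample 3 was the only one of the 9 in which the median was above 0, and all 4 genes were above 0 in it. The median over the days was -0.29 to -0.20 with each sample left out in turn.

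Gbe1 encodes the branching enzyme, which adds the side chains of glycogen. It had the lowest adjusted p of the members in the mean. Its ratios were -0.61, -0.59 and -0.18 at day 2, -0.24, -0.27 and 0.16 at day 4, and -0.30, -0.20 and -0.83 at day 7. The value was below 0 in 8 of 9 samples, and the 3 days overlapped. The mean was -0.34 (95% interval -0.53 to -0.15, limma adjusted p = 0.162), a ratio of 0.790. The adjusted p was 0.421 at day 2, for a mean of -0.46 ± 0.25 (SD, n = 3), and 0.251 at day 7, for -0.44 ± 0.34.

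Ugp2 encodes the enzyme that makes UDP-glucose, the sugar donor for glycogen. It read -0.51, -0.23 and -0.27 at day 2, -0.37, -0.20 and 0.22 at day 4, and -0.46, -0.35 and -0.21 at day 7. As for Gbe1, 8 of 9 samples were below 0 and the exception was day 4 sample 3. The mean was -0.26 (95% interval -0.42 to -0.10, adjusted p = 0.209), with adjusted p of 0.501 at day 2 and 0.301 at day 7. Gbe1 and Ugp2 were the only 2 members with the same sign in 8 or more of the 9 samples (6.25%, beside 5.77% of all genes). No member had the same sign in all 9, which 1.03% of all genes did.

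Pygl encodes the liver form of glycogen phosphorylase, which breaks glycogen down. Its ratios were -0.40, 0.17 and -0.09 at day 2, -0.41, -0.26 and 0.14 at day 4, and -0.32, -0.16 and -0.56 at day 7. Only in day 7 were all 3 samples below 0, at a mean of -0.35 ± 0.20 (SD, n = 3, adjusted p = 0.345), and the mean over the days was -0.21 (adjusted p = 0.417). Gys2, the liver form of glycogen synthase, ranged from -0.52 to 0.79, with day means of -0.16, 0.19 and 0.17. Gbe1 and Ugp2, of glycogen building, and Pygl, of breakdown, were thus on the same side of 0 in the mean.

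**Figure D3:**
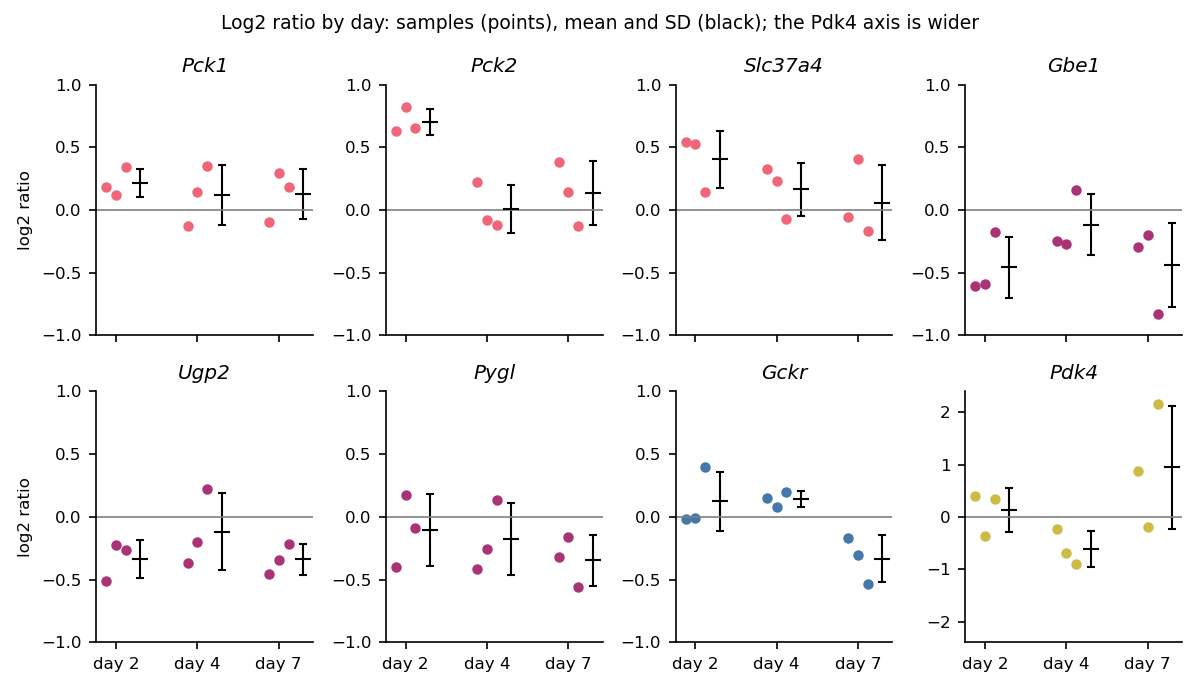
Log2 ratio of 8 genes by day, with each of the 3 samples as a point and the mean with its SD in black; the axis runs from -1 to 1 except for Pdk4, whose axis is wider. Pck2 at day 2 (0.63 to 0.82) lies above its later samples, Gbe1 and Ugp2 lie mostly below 0, Gckr is below 0 in the 3 samples of day 7 (-0.54 to -0.17), and Pdk4 reaches 2.16 in 1 sample of day 7.

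The other glycogen genes on the array do not stand with Gbe1 and Ugp2. Of 20 further genes of glycogen building, breakdown and its control, 17 were measured, 0 passed in any comparison, and 0 had an unadjusted p under 0.05 in the mean. Their median was 0.04, with 10 of 17 above 0. The 2 with the smallest p in the mean were Phkg1, a catalytic subunit of phosphorylase kinase, at 0.27 (adjusted p = 0.583), and Ppp1r3d, which directs a phosphatase to glycogen, at 0.32 (adjusted p = 0.585).

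Glucose entry and phosphorylation was covered by 6 members, of which 1 had a mean above 0 (median -0.03). That count was 2 without day 2 sample 1 or day 7 sample 2, and 3 without day 2 sample 3, day 4 sample 3, day 7 sample 1 or day 7 sample 3, while the median was -0.04 to -0.001 with samples left out in turn. Slc2a2 encodes GLUT2, the main glucose transporter of hepatocytes, and Slc2a1 encodes GLUT1, found in most cells. Slc2a2 ranged from -0.51 to 0.42, with day means of 0.10, -0.004 and -0.19, and Slc2a1 from -0.40 to 0.54, with day means of 0.04, 0.02 and -0.13. In neither did the samples of any 2 days separate. The hexokinases Hk1 and Hk2 phosphorylate glucose mainly in cells other than hepatocytes. Hk1 ranged from -0.26 to 0.30, with a day 2 mean of -0.17 ± 0.02 (SD, n = 3). Hk2 read -0.34, 0.14 and -0.22 at day 2, -0.17, 0.67 and -0.37 at day 4, and -0.05, 0.40 and 0.79 at day 7. Its values crossed 0 within every day, and the 95% interval of its mean over the days lay within 1.5-fold of no difference.

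Gckr encodes the regulatory protein that holds glucokinase inactive in the nucleus of liver cells. It read -0.01, -0.01 and 0.40 at day 2, 0.15, 0.08 and 0.20 at day 4, and -0.17, -0.30 and -0.54 at day 7. The samples of day 7 were all below those of both earlier days. The day 7 mean was -0.33 ± 0.19 (SD, n = 3, adjusted p = 0.272), and the difference of day 7 from day 4 was -0.48 (95% interval -0.84 to -0.11, adjusted p = 0.230). Khk, ketohexokinase, the entry step for fructose, had day means of -0.04, 0.20 and -0.30. Its 3 samples were all above 0 at day 4 (0.07 to 0.29) and all below 0 at day 7 (-0.76 to -0.04), and the day 7 mean rests mainly on the lowest sample.

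The 12 members of the glycolytic steps had 6 means above 0 and a median of -0.002. The count was 3 without day 2 sample 2, and 8 without day 2 sample 1 or day 7 sample 3. With a trimmed mean as the centre 4 were above 0, and Tpi1 and Eno1 were the genes whose sign turned. By day their median was -0.01, 0.12 and -0.13. The day 4 median was above 0 with 8 of 12 genes above it, and the day 7 median was below 0 with 7 of 12 genes below it. Without centring these 2 medians were 0.09 and -0.05. The day 4 median was 0.05 without day 4 sample 3, and the day 7 median was -0.05 without day 7 sample 2 and -0.04 without day 7 sample 3. The day 2 median was -0.10 without day 2 sample 2, 0.04 without day 2 sample 1 and 0.07 without day 2 sample 3.

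Aldoa encodes aldolase A, the form of muscle and most cells. It read 0.01, 0.19 and -0.22 at day 2, 0.38, 0.33 and -0.01 at day 4, and 0.26, 0.10 and -0.14 at day 7. The day 4 mean was 0.24 ± 0.21 (SD, n = 3, adjusted p = 0.555), and the days overlapped. Aldoc, the brain form, read 1.08, 0.15 and -0.02 at day 2, -0.50, -0.32 and -0.83 at day 4, and 0.27, -0.60 and -0.08 at day 7. Day 2 lay above day 4 without overlap, at a brightness of 7.28 that is inside the range of the Bacillus controls, and the day 4 mean of -0.55 had an adjusted p of 0.714. Tpi1, triose phosphate isomerase, read -0.29, 0.08 and -0.03 at day 2, 0.07, 0.06 and 0.56 at day 4, and -0.06, -0.13 and -0.21 at day 7. Every sample of day 4 was above 0 and every sample of day 7 below it, while the adjusted p was 0.570 at day 4.

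Pgk1 encodes phosphoglycerate kinase, the first step of glycolysis that yields ATP. It was the lowest member in the mean, at -0.39 (95% interval -0.76 to -0.03, adjusted p = 0.460). Its ratios were -0.92, 0.32 and -0.41 at day 2, -1.36, 0.08 and -0.52 at day 4, and 0.14, -0.90 and 0.03 at day 7. Values on both sides of 0 occurred in every day. The gene has 3 probe sets, whose means over the 9 samples were -0.43, -0.08 and -0.67. The first of these was dim (brightness 7.48) and spanned -4.15 to 1.43 over the samples, and the lowest gene value, day 4 sample 1, came from it. At day 4 it read -1.70, beside 0.15 and -0.25 for the other 2, so the day 4 gene mean of -0.60 (adjusted p = 0.493, the lowest of that day) rests on a probe set inside the range of the Bacillus controls.

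Pgam1, phosphoglycerate mutase, read -0.42, 0.03 and -0.11 at day 2, -0.01, 0.06 and 0.13 at day 4, and -0.11, -0.31 and -0.38 at day 7. Its day 7 samples all lay below those of day 4, with a day 7 mean of -0.27 ± 0.14 (SD, n = 3, adjusted p = 0.358). Eno1, enolase 1, was 0.11 to 0.23 at day 4 and -0.40 to -0.12 at day 7, a difference of -0.40 (adjusted p = 0.334), and crossed 0 at day 2. Ldha encodes the lactate dehydrogenase subunit that turns pyruvate into lactate. Its values were -0.02, 0.21 and 0.33 at day 2, 0.10, 0.13 and 0.36 at day 4, and 0.21, -0.12 and -0.02 at day 7. It was above 0 in 6 of 9 samples, with a mean of 0.13 (adjusted p = 0.540).

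The enzymes and regulators of the committed steps were more scattered. Pfkfb3 makes the fructose 2,6-bisphosphate that stimulates glycolysis. It read 0.05, -0.58 and -0.02 at day 2, 1.23, 0.19 and -0.32 at day 4, and 0.49, 0.41 and 0.02 at day 7. Its 2 probe sets had means of 0.35 and -0.03, and the highest gene value came from a single reading of 2.55 on the second of them. Pfkfb1, the liver form of that enzyme, ranged from -0.96 to 1.35, the widest of the members brighter than 12, and all 3 days crossed 0. Pfkl, the liver phosphofructokinase, ranged from -0.75 to 0.48, Pklr, the pyruvate kinase of liver and red cells, from -0.83 to 0.79, and Gpi, glucose 6-phosphate isomerase, from -0.37 to 0.37. The lowest adjusted p of these 3 at any day was 0.669, for Gpi at day 7.

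The 4 members at the entry of pyruvate into the citric acid cycle had a median of 0.02. Pdk4 encodes the pyruvate dehydrogenase kinase that is induced in fasting and shuts off glucose oxidation. It read 0.39, -0.36 and 0.35 at day 2, -0.23, -0.69 and -0.91 at day 4, and 0.88, -0.20 and 2.16 at day 7. The samples of day 7 lay above all of day 4, but they spanned more than 2 log2 units. The day 7 mean was 0.95 ± 1.18 (SD, n = 3, adjusted p = 0.273), and the difference of day 7 from day 4 was 1.56 (95% interval 0.53 to 2.58, limma adjusted p = 0.177). Without day 7 sample 2 the day 7 adjusted p of Pdk4 was 0.0834, the lowest of any member in any of the settings tried. Without day 7 sample 3, the highest of that day, it was 0.859, and the day 7 mean was 0.34.

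Pdha1, Pdk1 and Pdk2 stayed nearer to 0, and each has 2 probe sets whose means lie on opposite sides of 0. Pdha1, the subunit of pyruvate dehydrogenase that the kinases act on, read 0.32, -0.19 and 0.09 at day 2, 0.24, 0.03 and -0.22 at day 4, and 0.04, -0.45 and 0.15 at day 7. Its probe sets had means of -0.13 and 0.13. Pdk1 read 0.16, 0.38 and -0.31 at day 2, 0.01, -0.03 and 0.12 at day 4, and 0.35, -0.12 and -0.28 at day 7, with probe set means of 0.09 and -0.03. Both kinases Pdk1 and Pdk2 inhibit pyruvate dehydrogenase, as Pdk4 does. Pdk2 read -0.31, 0.22 and -0.26 at day 2, 0.33, 0.47 and -0.01 at day 4, and 0.15, -0.28 and -0.49 at day 7, with probe set means of -0.12 and 0.08. For these 3 genes the days overlapped in every pair.

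The days were then set against each other. Samples of day 2 and day 4 did not overlap for 3 of 32 members (Aldoc, Pck2 and Ppargc1a), which is 9.38% beside 14.4% of all genes. For day 2 and day 7 it was again 3 members (Fbp1, Gckr and Pck2), beside 12.6%. For day 4 and day 7 it was 6 members (Eno1, Gckr, Khk, Pdk4, Pgam1 and Tpi1), 18.8% beside 19.7% of all genes. All 3 samples of one day were above 0 and all 3 of the other below it in 4 members, Eno1, Gckr, Khk and Tpi1, between day 4 and day 7 (12.5%, beside 7.62%). In these 4 genes day 4 was the higher day. Such opposite days were found in 0 members between day 2 and day 4 (4.46% of all genes) and in 0 between day 2 and day 7 (3.79%). Of the 32 members, 0 passed the adjusted threshold in any of the 3 pairwise differences, which 0%, 0% and 0.0288% of all genes did for day 4 against day 2, day 7 against day 2 and day 7 against day 4 (limma). At an unadjusted p under 0.05 the counts were 2 (Pck2 and Ppargc1a, beside 8.65% of all genes), 2 (Gckr and Pck2, beside 8.33%) and 5 (Eno1, Gckr, Khk, Pdk2 and Pdk4, beside 13.3%).

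Some sample-wide measures also differed between samples and days, and their relation to the day differences of the members was not tested. Day 7 sample 3 held the fewest members above 0, 10 of 32. Its values were the lowest of the 9 samples for Eno1, Fbp1, Gbe1, Gckr, Gpi, Khk, Pck2, Pdk2, Pfkfb1, Pklr, Pygl and Slc37a4. They were the highest for Hk2 and Pdk4. The control probe sets for GAPDH, a glycolytic enzyme, differed between the 3′ and the 5′ end of the transcript, which follows RNA quality and labelling. That difference was -0.80 in day 7 sample 3, -0.39 and -0.21 in the other 2 samples of day 7, -0.42 to 0.11 at day 2 and -0.08 to 0.31 at day 4. For beta-actin it was -0.79, -0.31 and -0.06 at day 2, -0.35 to 0.38 at day 4 and -0.88, -0.44 and -0.88 at day 7, so day 2 sample 1 was also low. At day 7, 11 of 13 hepatocyte markers were below 0, with a median of -0.12. Of the 2 above 0, 1 was Hnf4a, at 1.31, 0.69 and 0.81 in the 3 samples (mean 0.94, limma adjusted p = 0.0726). At day 4, markers of exocrine pancreas had a sample median of -0.02, 2.53 and 1.13 over 18 measured genes, and 18 of 18 had a day mean above 0. In the mean over the days 16 of the 18 were above 0, while 1 passed as lower (limma, adjusted p under 0.05). Markers of red cells, over 5 genes, had sample medians of -0.24, -0.08 and 0.53 at day 2, 0.81, 0.47 and 0.49 at day 4 and 0.92, 0.29 and 0.12 at day 7, where 5 of 5 had a day mean above 0. The day medians were 0.008, 0.24 and -0.08 for macrophages and neutrophils (12 genes), -0.12, 0.04 and -0.17 for skeletal muscle (14) and -0.17, 0.11 and 0.03 for adipocytes (5). The part of these in the values of the members was not tested.

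The intervals show how large a difference these samples could have missed. In the mean over the 3 days, the 95% interval of 29 of 32 members lay within 1.5-fold of no difference in either direction, and the 3 that did not were Aldoc, Pgk1 and Ppargc1a. At single days it was 18 members at day 2, 20 at day 4 and 17 at day 7. The interval of each other member at a single day reached beyond 1.5-fold. That of Ppargc1a at day 2, 1.49 to 5.08, lay wholly above it.

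**Figure D4:**
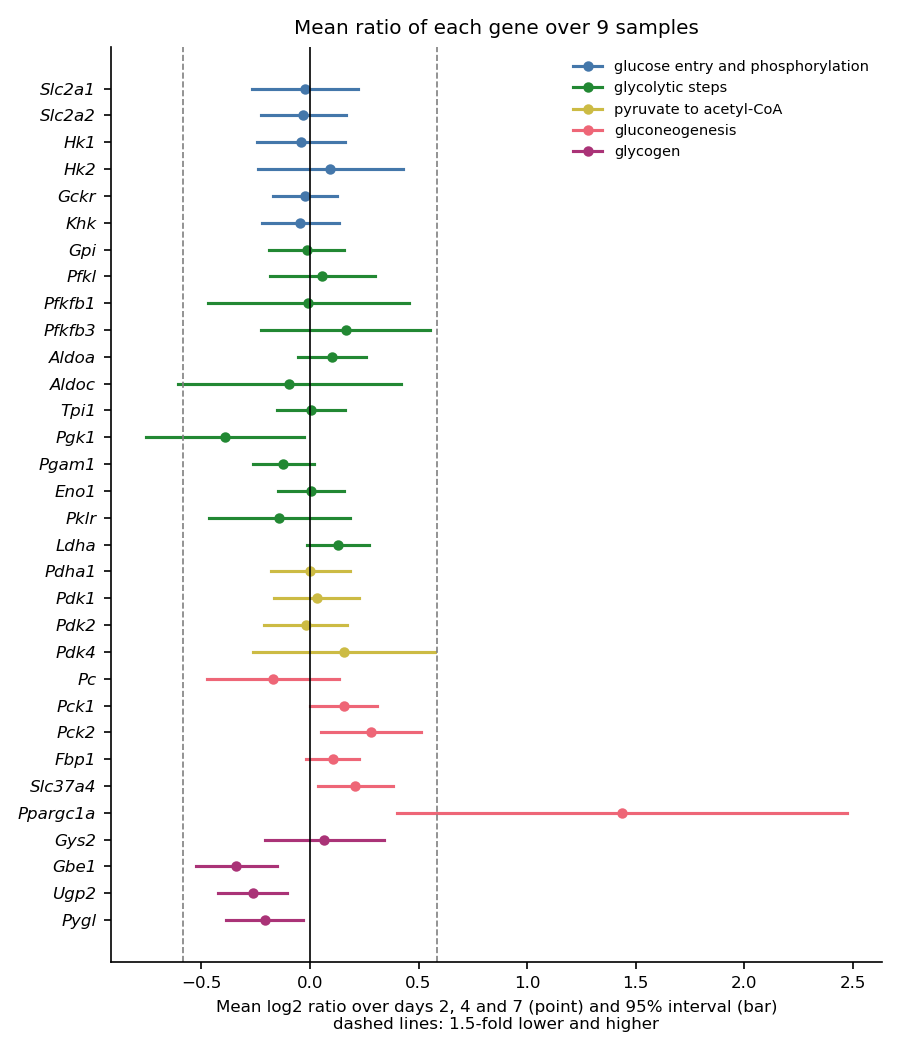
Mean log2 ratio over days 2, 4 and 7 for each of the 32 genes (point) with its 95% interval (bar), coloured by role; the dashed lines mark 1.5-fold lower and higher. The bars of Gbe1, Ugp2, Pygl and Pgk1 lie wholly below 0, those of Pck1, Pck2, Slc37a4 and Ppargc1a wholly above it, and those of Aldoc, Pgk1 and Ppargc1a cross a dashed line.

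The pathway around the members was read from 6 further lists. Of 14 measured genes of glycolysis and glucose uptake, 0 passed in any comparison, and their median in the mean was 0.09 with 9 of 14 above 0. The 2 with the smallest p were Ldhd, a mitochondrial D-lactate dehydrogenase, at -0.24 (adjusted p = 0.331), and Slc2a5, the fructose transporter, at 0.35 (adjusted p = 0.469). Of 17 measured genes of gluconeogenesis and its substrates, 0 passed in any comparison. In the mean their median was -0.01 with 7 of 17 above 0, and at day 2 it was 0.13 with 13 of 17 above 0. Gpt, alanine aminotransferase, which feeds alanine into gluconeogenesis, was at -0.55 and below 0 in 8 of 9 samples (adjusted p = 0.109), and G6pc3, a glucose 6-phosphatase of most tissues, was at 0.29 (adjusted p = 0.432).

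Of 11 genes of pyruvate and lactate handling, 0 passed, with a median of 0.02. The leading 2 were Mpc2, a subunit of the mitochondrial pyruvate carrier, at 0.16 (adjusted p = 0.506), and the lactate exporter Slc16a3, at 0.45 (adjusted p = 0.513). Of 13 genes of the pentose phosphate, fructose and galactose routes, 0 passed, with a median of 0.01. Sord, sorbitol dehydrogenase, was at -0.21 (adjusted p = 0.264), and H6pd, the glucose 6-phosphate dehydrogenase of the endoplasmic reticulum, at 0.15 (adjusted p = 0.462).

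The list of hormone and transcription control of glucose output was the only one of the 6 with genes that passed. Of its 25 measured genes, 1 rose and 1 fell, both in the mean and at day 2. Igfbp1 encodes a binding protein for insulin-like growth factors that liver makes in fasting and stress and that insulin represses. It read 1.07, 2.77 and 3.19 at day 2, 2.81, 2.47 and 1.43 at day 4, and -0.84, -0.15 and -0.91 at day 7. The 6 samples of days 2 and 4 were all above the 3 of day 7, and it rose by 1.32 in the mean (adjusted p = 0.0219) and by 2.34 at day 2 (adjusted p = 0.0306), while the difference between days had an adjusted p of 0.0964. Prkaa2 encodes a catalytic subunit of AMP-activated protein kinase. It was below 0 in 9 of 9 samples and lowest at day 2, at -1.03, -1.59 and -0.82, and it fell by 0.52 in the mean (adjusted p = 0.0399) and by 1.14 at day 2 (adjusted p = 0.0245). Hnf4a, a transcription factor of hepatocytes, was at 0.40 in the mean (adjusted p = 0.101), and the glucagon receptor Gcgr at 0.29 (adjusted p = 0.250).

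The calls of both genes rest on single samples and settings. In the mean, Igfbp1 kept its call in 9 of 16 alternatives. It lost it without a variance trend (adjusted p 0.154) and without day 2 sample 2, day 4 sample 1, day 4 sample 2 or any 1 sample of day 7 (adjusted p 0.0627 to 0.0921). Prkaa2 kept its mean call in 5 of 16. It lost that call without any 1 sample other than day 2 sample 3 (adjusted p 0.0640 to 0.150), and kept it without that sample (0.0353). It also lost it without a variance trend (0.208), without centring (0.0685) and with the sample number as a block (0.0876). At day 2, Igfbp1 lost its call without day 2 sample 2 (0.320), day 2 sample 3 (0.119) or day 7 sample 1 (0.0576), and Prkaa2 lost it without day 2 sample 1 (0.121) or day 2 sample 2 (0.199). Both day 2 calls were also lost without a variance trend (0.222 for Igfbp1 and 0.180 for Prkaa2) and with the sample number as a block (0.0679 and 0.0623).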

How the data were processed

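The labels list sham and injury RNA as 2 channels of each sample on the Affymetrix RAE230A rat array. Whether both RNAs were hybridised to the same array cannot be told from the ratios, and each ratio may join 2 arrays. The value table holds 1 log2 ratio per probe set and sample, deposited by the authors; which software, scaling and build were used is not given in the sources used here. That the values are log2 ratios of whole numbers was checked for numbers up to 3000. Of the values of a sample, 66.3% to 69.4% equal such a ratio (tolerance 1e-09), against 0.239% to 0.352% after a random shift. The share after a shift was not taken for the larger numbers, up to 20000, that brightness also uses. Depth has no counterpart for arrays, and the number of samples limits the precision.

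Of 15923 probe sets, 57 controls were left out. Platform annotation gave 1 symbol to 12783 of the rest, several to 312 and none to 2771, and 12748 symbols were matched to RefSeq by gene ID. Ratios were centred on each array's median and averaged over the probe sets of a gene (10411 genes, 1868 with over 1). Day means were fitted to 9 arrays (6 residual degrees of freedom) with limma 3.58.1 in R 4.3.3, the variance prior following brightness, which was recovered from the ratios with signals capped at 20000 and unrecovered ratios held at the cap. The p-values were adjusted by Benjamini-Hochberg over all genes. The fit was tested on simulated data.

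The members, the gene lists and the alternatives were chosen with earlier results of these data known. Values in every sample are given for members that pass, for the 3 highest and 3 lowest moderated t of each comparison (for the difference between days, the 4 highest F), for members of 1 sign in all 9 samples and for members whose probe sets differ in sign, with Pck1 added after its values were seen. Of the other genes, those that pass are named and at most 2 others a list. Marker lists of macrophages and neutrophils, skeletal muscle and adipocytes were also read. Alternatives changed the variance prior, the centring, the probe sets and genes used, the weights of arrays, a block for the sample number and the samples left out. Sample numbers were not taken to pair samples, since the deviations of same-numbered samples correlated at -0.041 to 0.068.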

Additional observations from a re-analysis of the deposited data

How the results depend on the processing

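No member passed an adjusted p of 0.05 in any of the 5 comparisons as reported or under any of 17 alternatives (90 counts in all, each 0), and the lowest adjusted p of a member was 0.0834, for Pdk4 at day 7 without day 7 sample 2. Of 2032 values of members under the alternatives, 111 changed sign. Of these, 0 had an unadjusted p under 0.05 in the fit as reported (limma). Values with such a p lie away from 0 and could hardly change sign, so that 0 says little. Counts over all genes moved more; the main ones were 34 in the mean, 15 at day 2, 0 at day 4, 5 at day 7 and 1 in the difference between days. Without a variance trend they were 4 in the mean and 0 at day 2, at day 7 and between days (limma, 935, 809, 1139 and 1044 at an unadjusted p under 0.05). Without centring 9 passed at day 7 and 0 between days (1295 unadjusted), and with a trimmed mean 0 between days (1259 unadjusted). Without the dimmest genes (the lowest tercile of brightness), 5 passed at day 4, 8 at day 7 and 6 between days. With each probe set on its own, 1 passed at day 4, 9 at day 7 and 0 between days (1861 unadjusted). Without probe sets marked as shared between transcripts 2 passed between days, and with array weights 36 at day 4 and 2 between days. With samples left out in turn, 9 to 40 passed in the mean, 0 to 17 at day 2, 0 to 6 at day 4, 0 to 12 at day 7 and 0 to 6 between days. Samples whose absence moved the count in the mean by over 1.5 times were day 2 samples 1 (16) and 2 (19), day 4 samples 1 (21) and 2 (9), and day 7 samples 1 (13), 2 (21) and 3 (17). At an unadjusted p under 0.05 the members counted in the mean, 8 as reported, were 4 without a variance trend and 11 without centring. The causes were not tested, beyond the fewer genes or samples that an alternative holds.

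With the sample number as a replicate block, 23 genes passed in the mean, 4 at day 2, 0 at day 4 (limma), 1 at day 7 and 0 between days (1277 unadjusted), and again 0 members. The correlations of same-numbered deviations (-0.041 to 0.068) give no sign that the numbers pair the samples.

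Low signal limits Ppargc1a, Aldoc and 1 of the 3 probe sets of Pgk1, whose brightness lies in the range of the Bacillus controls. Whether that range is background was not tested. With 3 samples a day, the 95% interval reached beyond 1.5-fold for 14 members at day 2, 12 at day 4 and 15 at day 7.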

Other observations

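The array also carries control probe sets for hexokinase, left out of the test. Their ratios scattered far more than those of Hk1 (-0.26 to 0.30): the probe set for the middle of the transcript read 0.05, 2.37 and 1.14 at day 2, -2.21, -0.11 and -4.07 at day 4, and 0.42, 1.31 and 3.13 at day 7. The brightness of these hexokinase control probe sets was not compared with that of Hk1, and dim genes had a wider spread. The control probe sets for GAPDH had a mean of 0.14 at the 5′ end, 0.07 in the middle and -0.03 at the 3′ end over the 9 samples, with values on both sides of 0. In day 7 samples 1 and 3 the 5′ end read 0.42 and 0.53 and the 3′ end 0.03 and -0.27.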
